A study of Diospyros lotus with 24 samples.

Results

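The 200 contigs described here were the steadiest transcripts among trees of 1 family of the dioecious persimmon Diospyros lotus, a species in which male and female flowers grow on separate trees. They were drawn from 417827 contigs with a count of bud mRNA. First, contigs were kept whose mean over 17 progeny lay from 20 to 200 CPM (reads of the contig scaled to the total of its library), which left 13369. Of these, the 200 with the lowest SD of log2(CPM + 0.5) over the same 17 trees were taken. Those 17 values per contig chose the members, so the low spread itself and the level range are a description and carry no test.

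The mRNA libraries came from mixed buds at an early stage of primordium differentiation, in trees of the cultivar Kunsenshi, for which the labels name no transgene and no agent. The father and the mother, a male and a female tree, gave 1 library each, and their KK progeny gave 8 usable sons and 9 daughters with 1 library per tree. Sampling dates were June 17 and July 4 of 2013, and the labels tie no library to a date, so date cannot be told apart from sex or from generation. Bud small RNA was sequenced in the father and the mother, 1 library each. Tree ages are not given in the labels used here.

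A reference transcript is one whose level changes so little between samples that other transcripts can be scaled to it. In plants such transcripts are usually sought among housekeeping genes, which serve functions that every cell needs, such as the cytoskeleton, translation and protein turnover, and each choice has to be checked in the tissue at hand. Buds are a demanding case, since they mix meristem, young leaves and flower primordia whose proportions can differ between trees. In bulk buds, fewer cells of a type and less RNA per cell cannot be told apart. Gene names for the contigs are not among the files used here, and 0 of their IDs matched the 27971 genes of the RefSeq annotation of this species, so the functions of the 200 contigs and a textbook list of plant reference genes could not be looked up. For the same reason the bud label could not be checked against marker genes.

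The 19 libraries used held 3527282 to 15314430 counts, 5823321 to 15314430 in sons and 3527282 to 6963244 in daughters. The libraries of the sons were thus deeper, and a shallow library adds counting error to the spread of every contig. Every one of the 200 contigs had at least 60 counts in each of the 19 libraries, with a median of 453.0 counts per contig and progeny library. The library of son 5 held 387 counts in all, 4 of them on the 200 contigs, and was not used.

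The steady contigs were long and well expressed for their range. Their length had a median of 2624 bases (329 to 11450), against 1626 bases over all 13369 contigs of 20 to 200 CPM. Their mean level in the progeny had a median of 69.3 CPM, against 37.7 CPM over the range. Per kilobase of contig, their level had a median of 27.2 CPM, against 26.1 CPM over the range. They therefore stood above the range in level per contig and close to it in level per length, with lengths that differed. Among contigs of at least 1000 bases, the median per kilobase was 25.8 CPM in 189 members and 20.1 CPM over the range.

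The share of contigs chosen climbed with both properties. Of 1749 contigs under 500 bases 4 were chosen (0.229%), and of 2327 contigs of 3000 bases or more 77 were chosen (3.31%). Of 4369 contigs of 20 to under 30 CPM 10 were chosen (0.229%), and of 685 contigs of 100 to 200 CPM 50 were chosen (7.30%). Counting error alone gave a median SD of 0.118 in the lowest of these level classes and 0.0538 in the highest, on the log2 scale. The observed median SD was 0.257 and 0.192. Both fell with level, and how much of one goes with the other was not tested.

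Among the members the SD ran from 0.0612 to 0.113, with a median of 0.104, where the range as a whole had a median of 0.230. In a member the highest of the 17 trees had a median of 1.29 times the CPM of the lowest, and at most 1.44 times. The SD expected from counting error alone, computed for each contig from its level and the library totals, had a median of 0.0702. Observed SDs were a median of 1.41 times that error in members, against 2.45 times over the range. In 121 of the 200 the SD was at most 1.5 times counting error, and in 16 it was below counting error. In 13 it was over 2 times counting error.

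**Figure D1:**
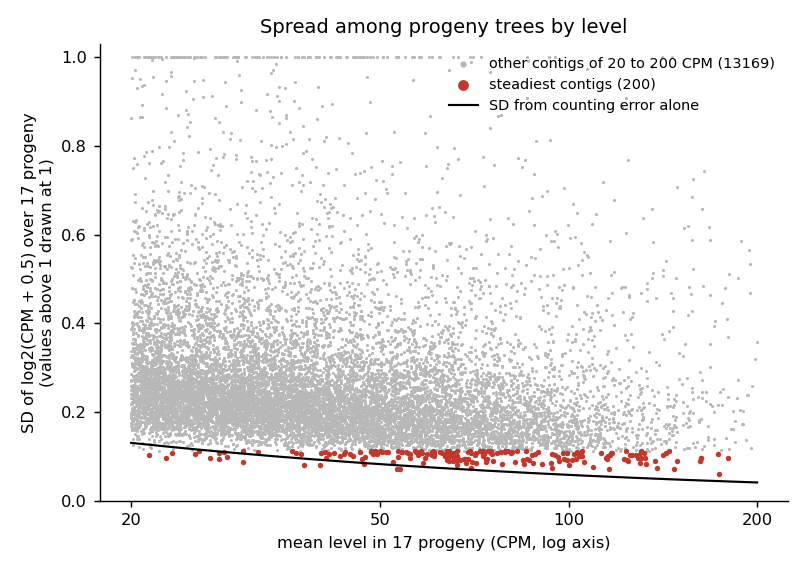
SD of log2(CPM + 0.5) over 17 progeny (vertical axis) against mean level in CPM (horizontal log axis) for 200 steadiest contigs in red and the other 13169 contigs of 20 to 200 CPM in grey, with a black line for the SD that counting error alone gives. The red points lie along the line at low levels and above it at high levels, all at or below an SD of 0.113; grey values above 1 are drawn at 1.

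The steadiest contig, Contig215973DeNovoAssembly of 3789 bases, had 165 CPM in the lowest, 172 CPM in the median and 176 CPM in the highest son. In daughters it had 163, 176 and 189 CPM in the lowest, median and highest tree. The ranges of the sexes overlapped, and the highest of the 17 trees had 1.16 times the CPM of the lowest. Its SD was 0.0612 where counting error gave 0.0444.

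Next came Contig312701DeNovoAssembly of 3214 bases, with 140 to 158 CPM in sons and 135 to 160 CPM in daughters. Contig186805DeNovoAssembly of 6283 bases had 109 to 125 CPM in sons and 104 to 124 CPM in daughters. In both contigs the ranges of the sexes overlapped over most of their width. The fourth and the fifth, Contig135240DeNovoAssembly of 2140 bases and Contig390737DeNovoAssembly of 2192 bases, were less abundant, at 53.3 ± 2.69 and 53.7 ± 2.79 CPM (SD, n = 17 each). Their SDs, 0.0726 each, were below the 0.0800 and 0.0797 that counting error gives, as a choice of the lowest SDs favours.

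The rule has a sharp edge in a dense distribution. Contig192027DeNovoAssembly and Contig108836DeNovoAssembly, the last inside it, had an SD of 0.1127 each, and Contig313413DeNovoAssembly and Contig196131DeNovoAssembly, the first outside it, had 0.1128 and 0.1129. With each of the 17 progeny libraries left out in turn, 144 to 177 of the 200 contigs were chosen again, the fewest without daughter 5, and 121 were chosen in all 17 lists. With counting variance subtracted from the variance of each contig before ranking, 119 were chosen again and the median level of the new list was 42.7 CPM.

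Sons and daughters differed little in these contigs, as the rule makes likely: a contig with a difference between the sexes has a larger SD over all 17 trees. The mean of sons minus the mean of daughters ran from -0.10 to 0.13 (log2), with a median of 0.02, against 0.05 over the range. In 186 of the 200 the sexes were within 0.1 of each other, and sons were the higher in 136. No member was called between the sexes by edgeR's quasi-likelihood test with Benjamini-Hochberg adjustment (0 of 200, lowest adjusted p = 0.699), 1 had an unadjusted p under 0.05, and DESeq2 called 0. The same edgeR fit called 0.0477% of 62831 contigs tested and 0.0224% of those of 20 to 200 CPM. CPM ranges of sons and daughters did not overlap in 0 members and in 0.0449% of the range. These counts come from the libraries that chose the members and nothing is read from them.

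Whether a low spread in 1 sex goes with a low spread in the other was examined with new lists of 200 contigs. Each list was chosen on 1 sex and read in the other, whose trees had no part in that choice. Of the list chosen in daughters 83 contigs were members, and of that chosen in sons 63. The 17 trees are also those of the rule, so the values describe these lists and do not test the members. Here the level limits were applied to the mean of the choosing sex. The 200 contigs steadiest in daughters had a median SD of 0.0843 in daughters and 0.147 in sons, where all contigs of 20 to 200 CPM had 0.209 in sons. The 200 steadiest in sons had a median SD of 0.0703 in sons and 0.162 in daughters, where all contigs of that level had 0.236. In the trees not used for the choice the SD was therefore below that of the range and well above the SD that had chosen the contigs.

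Of the 200 chosen in daughters, 177 lay in the steadiest 50% of contigs in sons, 114 in the steadiest 25% and 65 in the steadiest 10%. Of those chosen in sons, 169, 124 and 69 lay in these shares in daughters. The lists chosen in sons and in daughters had 17 contigs in common, 8.5% of each. Relative to counting error the gap was narrower: SDs in sons were a median of 2.21 times counting error for contigs chosen in daughters, against 2.57 times over the range. In daughters the ratios were 1.95 and 2.30. The chosen contigs also had a lower counting error, with a median SD of 0.0657 against 0.0838 over the range in sons. In daughters these were 0.0828 and 0.105.

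**Figure D2:**
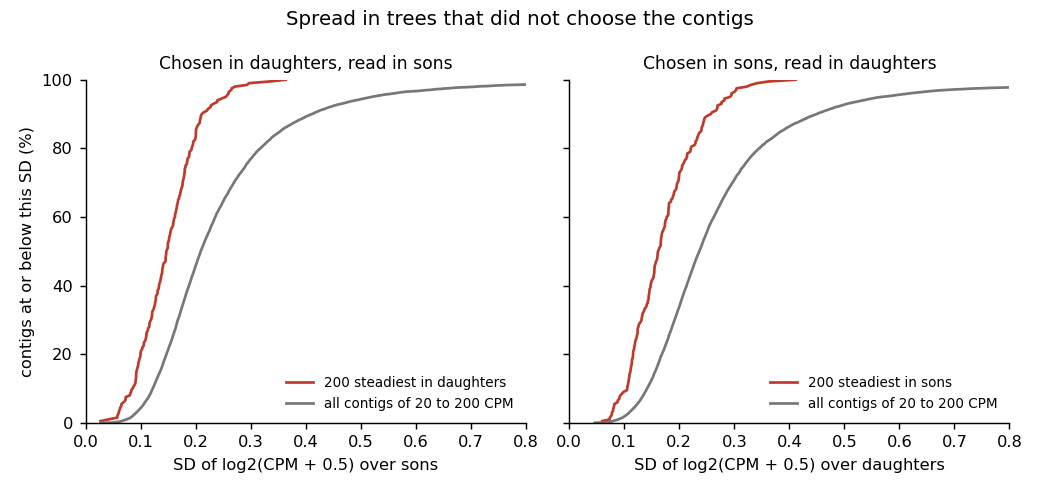
Percent of contigs at or below a given SD of log2(CPM + 0.5), read in 8 sons for contigs chosen in 9 daughters (left) and read in daughters for contigs chosen in sons (right); red lines are the 200 chosen contigs and grey lines all contigs of 20 to 200 CPM. The red lines lie left of the grey ones, with medians of 0.147 against 0.209 in sons and 0.162 against 0.236 in daughters.

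The parents had no part in the rule, and most of the 200 contigs were lower in them than in any of their progeny. The father lay below all 17 progeny in 146 members, inside their range in 47 and above it in 7. The mother lay below in 151, inside in 44 and above in 5. Both parents lay below every progeny library in 134 members, or 67%, against 36.7% of the contigs of 20 to 200 CPM, and both lay inside the progeny range in 30, or 15%, against 35.9%. Both lay above every progeny library in 4 members, against 5.33% of the range. The progeny range of a member is narrow by choice, which makes it easy to fall outside.

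In CPM scaled to library totals, the median member was 0.43 below the progeny mean in the father and 0.43 below it in the mother (log2). All contigs of 20 to 200 CPM shared this shift, with medians of -0.36 in the father and -0.37 in the mother. The contigs were taken into this range by their level in progeny and not by that in parents. The 200 contigs together held 1.16% of counts in the father and 1.17% in the mother, against 1.499% to 1.613% in progeny libraries. The 10 most counted contigs of a library took 5.78% of counts in the father and 4.48% in the mother, against 0.952% to 1.96% in progeny; their part in the shift was not tested.

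**Figure D3:**
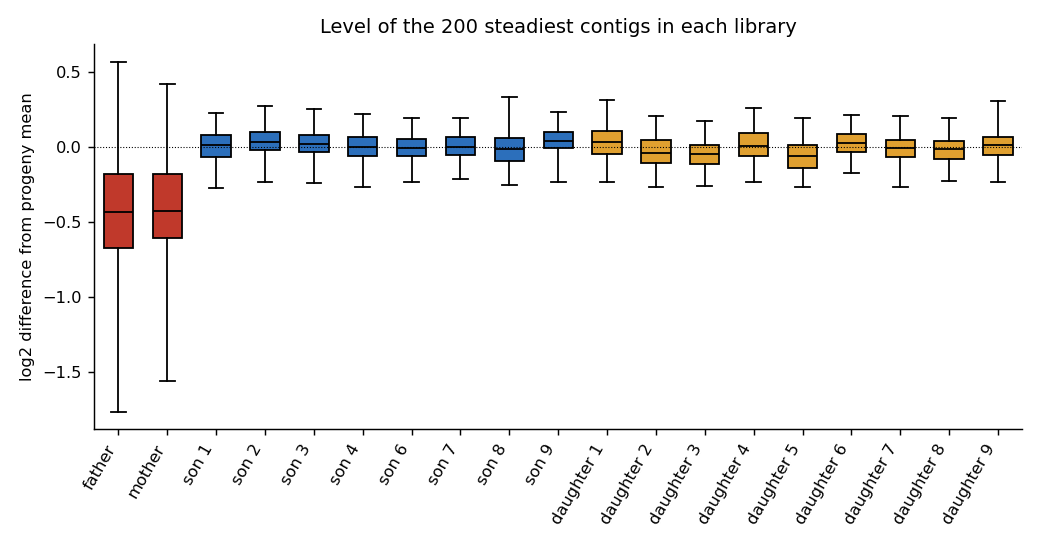
Log2 difference of each of the 200 steadiest contigs from its own progeny mean, in the father and mother (red), 8 sons (blue) and 9 daughters (yellow); boxes span the middle of the contigs with a line at the median, and whiskers reach the extremes. Progeny medians lie between -0.06 and 0.04 by the choice of the contigs, and the parents' medians lie at -0.43 each with wider boxes.

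By the test across all contigs, 116 of the 200 changed between parents and progeny (edgeR quasi-likelihood test with sex as a term, Benjamini-Hochberg adjusted p under 0.05), 113 lower in parents and 3 higher. The same fit called 28.1% of 89128 contigs, and 45.7% of those of 20 to 200 CPM, with 37.9% lower and 7.78% higher. A low spread in progeny enters this test, so the larger share among members is a description: the median SE of a log2 fold change was 0.117 in members and 0.179 over the range. The fold changes themselves were not larger, with a median size of 0.37 in members against 0.45 over the range. A log2 fold change beyond 1 either way was found in 12 members, or 6%, against 16.3% of the range.

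The size of the shift, and the split of calls by direction, depended on the filter on low counts and the factors computed after it. Where TMM factors were computed from the 25483 contigs with at least 50 counts in at least 10 libraries, 86 members were called, 63 lower and 23 higher, and the median log2 fold change moved to -0.11 in members, against -0.36 with the broader filter. The median over the range moved alike, to -0.08 from -0.33. In this fit 43.01% of the range was called and 43% of members, so the larger share among members was absent. Scalings that kept the filter left members mostly lower. DESeq2's size factors gave 93 lower and 4 higher, where 42.3% of the range was called. Library totals gave 121 lower and 2 higher, where 47.9% of the range was called. With only 1 parent in the fit, so that its spread is taken from the other trees, 71 members were called in the father alone, against 22.3% of the range, and 57 in the mother alone, against 21.4%.

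A contig's difference from the median shift of the range is not moved by scaling a library. By that measure the members stayed closer together than other contigs. Both parents were within 0.25 (log2) of that shift in 82 members, or 41%, against 20.2% of all contigs of 20 to 200 CPM and 28.5% of the 2194 contigs of at least 50 CPM and 2000 bases. Within 0.5 the shares were 81%, 49.9% and 61.2%. The SD of these differences over contigs was 0.37 in the father and 0.34 in the mother for members, against 0.72 and 0.73 over the range. In contigs of at least 50 CPM and 2000 bases it was 0.60 and 0.61, so the members were spread less in the parents than contigs of like length and level.

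**Figure D4:**
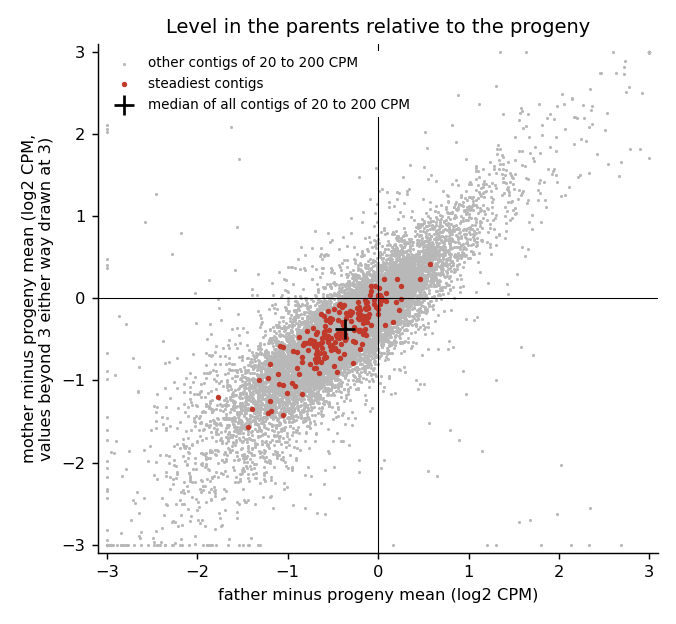
Difference of the father (horizontal) and the mother (vertical) from the progeny mean in log2 CPM, for 200 steadiest contigs in red and the other contigs of 20 to 200 CPM in grey; the cross marks the median of all these contigs. Red points cluster around the cross at -0.36 and -0.37 within the wider grey cloud, and only 9 lie above 0 in both parents.

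The members that departed most from their progeny level were lower in parents. Contig296891DeNovoAssembly, 5187 bases long, had 46.8 CPM in the father and 42.9 CPM in the mother, against 115 to 146 CPM in sons and 116 to 138 CPM in daughters. Parents and progeny did not overlap, and the fit gave a log2 fold change of -1.45 ± 0.12 (SE, edgeR adjusted p = 1.8e-09). Contig313784DeNovoAssembly, 1770 bases long, had 23.7 CPM in the father and 35.4 CPM in the mother, against 75.2 to 89.5 CPM in sons and 74.6 to 90.2 CPM in daughters. Again the groups did not overlap, at a log2 fold change of -1.42 ± 0.14 (SE, edgeR adjusted p = 5.58e-08).

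On the other side, Contig215785DeNovoAssembly, 1320 bases long, had 80.3 CPM in the father and 72.2 CPM in the mother, against 49.3 to 57.8 CPM in sons and 50.1 to 66.8 CPM in daughters. It was higher by 0.56 ± 0.11 on the log2 scale (SE, edgeR adjusted p = 0.000673), and it lost the call without the father (adjusted p = 0.0555) and without a count filter (0.0631). Contig316692DeNovoAssembly, 490 bases long, had 41.8 CPM in the father and 35.7 CPM in the mother, against 25.5 to 33.6 CPM over sons and daughters. It was higher by 0.42 ± 0.13 on the log2 scale (SE, edgeR adjusted p = 0.0145), and it lost the call without the father (adjusted p = 0.342) and without a count filter (0.425). Both contigs were higher in each parent than in any progeny tree.

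The steadiest contig was among those lower in parents. Contig215973DeNovoAssembly had 112 CPM in the father and 101.1 CPM in the mother, against 174 ± 7.44 CPM in progeny (SD, n = 17), or -0.64 ± 0.10 as a log2 fold change (SE, edgeR adjusted p = 2.72e-05). Contig312701DeNovoAssembly had 92.4 CPM in the father and 99.9 CPM in the mother, against 147 ± 7.24 CPM in progeny. Contig186805DeNovoAssembly had 72.1 CPM in the father and 78.0 CPM in the mother, against 116 ± 5.82 CPM in progeny. In all 3 both parents lay below every progeny tree. The most abundant member, Contig195600DeNovoAssembly of 6031 bases, had 96.3 CPM in the father and 114 CPM in the mother, against 180 ± 12.0 CPM in progeny (SD, n = 17).

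Both parents within 0.25 (log2) of the progeny mean, with the sexes within 0.1 of each other, were found in 11 of the 50 steadiest members and in 8 of the 50 least steady. Both parents lay below every progeny tree in 41 of the 50 steadiest members and in 29 of the 50 least steady, whose wider progeny ranges are harder to fall below. The test called 33 and 28 of them. By length it called 87 of 146 members of 2000 bases or more and 29 of 54 shorter ones. It called 45.7% of the range, and the spread in progeny enters the test, so nothing is read from these splits.

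Father and mother resembled each other in these contigs. Their difference had a median size of 0.13 (log2) in members, against 0.21 over the range and 0.16 in contigs of at least 50 CPM and 2000 bases. No member differed by more than 2-fold between the parents, where 2.42% of the contigs of 20 to 200 CPM did. The exact 95% interval of the ratio of counts, which covers counting error only, included 1 in 142 of the 200, or 71%, against 62.8% of the range and 61.3% of long, abundant contigs. In units of counting error the difference had a median of 1.19 in members, 1.45 over the range and 1.55 in long, abundant contigs. With 1 library per parent these values have no replicate check.

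Contigs that could serve as references across all 19 trees were taken as members within 0.25 (log2) of the progeny mean in each parent and with sons and daughters within 0.1 of each other. There were 41, or 20.5% of members, against 9.17% of the range and 12.2% of contigs of at least 50 CPM and 2000 bases. The limit between sexes repeats what the rule used, and 93% of members met it, against 54.5% of the range. By the limit on parents alone 44 members passed, or 22%, against 16.2% of the range and 18.5% of the long, abundant contigs. The 41 were 410 to 11450 bases long, at 25.6 to 149 CPM in progeny. In 26 of the 41 both parents lay inside the progeny range. In CPM from TMM library sizes 38 members passed, 35 of them among the 41. Against the median shift of the range 73 passed and 10 of the 41 were among them, so the choice turns on which scale is taken as level.

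Contig390737DeNovoAssembly, the fifth steadiest member, had 52.0 CPM in the father and 51.3 CPM in the mother, against 50.2, 54.5 and 61.2 CPM in the lowest, median and highest son and 50.3, 53.1 and 55.7 CPM in daughters. Both parents lay inside the progeny range. Parents over progeny gave 0.0029 ± 0.11 as a log2 fold change (SE, edgeR adjusted p = 0.988), and it was 0.26 (adjusted p = 0.029) with factors from contigs of at least 50 counts.

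Contig300951DeNovoAssembly, 2890 bases long, had 82.0 CPM in the father and 84.9 CPM in the mother, against 88.3 to 99.5 CPM in sons and 85.8 to 102 CPM in daughters. Contig102914DeNovoAssembly, 3371 bases long, had 112 CPM in the father and 115 CPM in the mother, against 122 to 140 CPM in sons and 120 to 146 CPM in daughters. In both contigs the parents were just under the lowest progeny tree. Contig313717DeNovoAssembly, 1204 bases long, had 59.1 CPM in the father, under all progeny, and 63.7 CPM in the mother, inside the range of 59.4 to 74.8 CPM over sons and daughters.

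Contig295155DeNovoAssembly, 2449 bases long, was the exception among these 5, with 82.2 CPM in the father and 83.8 CPM in the mother, against 70.1 to 77.7 CPM in sons and 64.1 to 76.5 CPM in daughters. Both parents lay above every progeny tree, and it was the 1 of the 41 that was called, at 0.28 ± 0.10 as a log2 fold change (SE, edgeR adjusted p = 0.0461). With library totals alone its adjusted p was 0.0539. Without the mother it was 0.348 and without the father 0.141.

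The most abundant of the 41 was Contig187334DeNovoAssembly, 3528 bases long, with 155 CPM in the father and 147 CPM in the mother, against 139 to 158 CPM in sons and 134 to 164 CPM in daughters. Both parents lay inside the progeny range. The second, Contig140117DeNovoAssembly of 1496 bases, had 155 CPM in the father, above all progeny, and 120 CPM in the mother, against 118 to 146 CPM in sons and 120 to 148 CPM in daughters. Its father over mother ratio of CPM was 1.29 (95% interval 1.18 to 1.41). Neither was called between parents and progeny, but with factors from contigs of at least 50 counts both were, at 0.33 (edgeR adjusted p = 0.00708) for Contig187334DeNovoAssembly and 0.37 (edgeR adjusted p = 0.00568) for Contig140117DeNovoAssembly.

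Averaging contigs lowered the spread further. The mean log2 level of the 5 steadiest of the 41 had an SD of 0.049 over the 17 progeny and differed from the progeny mean by -0.09 in the father and -0.05 in the mother. The mean of the 5 steadiest members, chosen without the parents, had an SD of 0.038 and differed by -0.47 and -0.43. Both sets were picked on these values, which are a description.

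**Figure D5:**
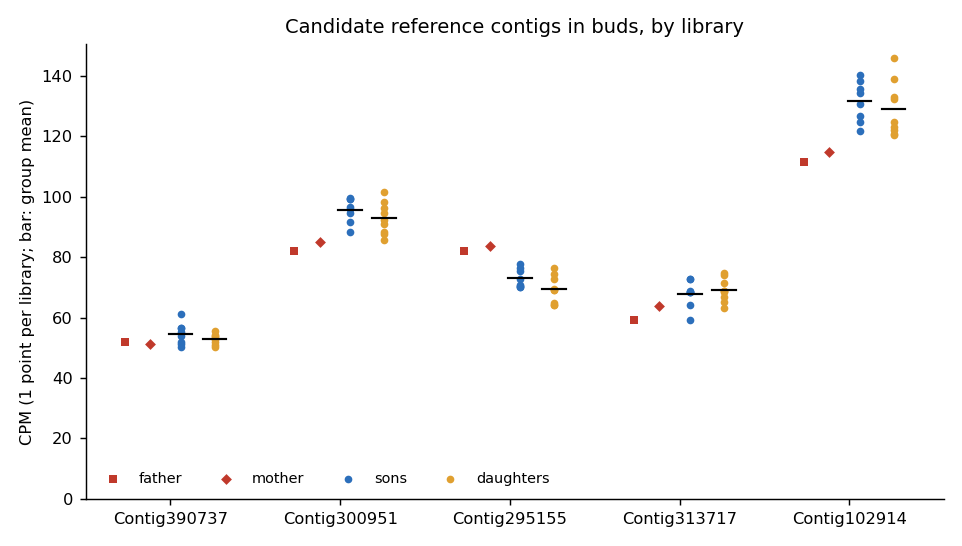
CPM of the 5 steadiest candidate contigs in the father (squares), the mother (diamonds), 8 sons (blue) and 9 daughters (yellow), with 1 point per library and a bar at the mean of sons and of daughters. Contig390737 has its parents inside the progeny range, and Contig295155 has both parents above all progeny.

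Small RNA, the class of short RNAs that guide silencing in plants, was counted on the same contigs in the parents and had no part in the rule. Every member carried it, with 0 of 200 lacking a count in either parent, against 1.65% of the range without a count in the father and 1.77% in the mother; 0 of the contigs of at least 50 CPM and 2000 bases lacked one. Totals were 14168901 counts in the father and 19315399 in the mother. Density, in small RNA CPM per kilobase of contig, had a median of 0.515 in the father and 0.394 in the mother for members. Over the range the medians were 0.529 and 0.419, and in contigs of at least 50 CPM and 2000 bases 0.523 and 0.405. The median density of the steady contigs was thus close to that of the range and of long, abundant contigs. It was below that of contigs of 50 to 200 CPM of any length, whose medians were 0.585 in the father and 0.456 in the mother.

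Dense small RNA was rarer among members. A density over 5 in either parent was found in 3 of 200, or 1.5%, against 6.69% of the range and 4.97% of contigs of at least 50 CPM and 2000 bases. A density over 1 in both parents was found in 16, or 8%, against 17.5% and 13.9%. These shares have no replicate check.

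The densest member, Contig295788DeNovoAssembly of 2550 bases, held 563 small RNA counts in the father and 426 in the mother, or 15.6 and 8.65 CPM per kilobase. Its mRNA was at 61.0 to 78.4 CPM in sons and 62.9 to 75.1 CPM in daughters, with 61.8 CPM in the father and 51.4 CPM in the mother. Contig187009DeNovoAssembly, the longest member at 11450 bases, held 1847 counts in the father and 1921 in the mother, or 11.4 and 8.69 CPM per kilobase. Its mRNA was at 108 to 127 CPM in sons and 99.9 to 121 CPM in daughters, with 98.5 CPM in the father and 97.2 CPM in the mother. Both contigs combined mRNA steady among progeny with over 10 times the median small RNA density of members, which was read in the parents. There the mRNA of Contig187009DeNovoAssembly was below all progeny in both parents, and that of Contig295788DeNovoAssembly in the mother. The shortest member, Contig229007DeNovoAssembly of 329 bases, had 1 small RNA count in each parent.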

How the data were processed

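Bud mRNA of 17 usable progeny and 2 parents and bud small RNA of the parents were analysed. The authors deposited raw counts for each contig of a de novo assembly, beside contig lengths. Tools listed in the submitters' processing notes are BWA, DESeq 1.14 and R 3.0.1. How reads were counted, including multiple matches and strand, is not given in the sources used here, so contigs of 1 gene, its alleles or near copies may share reads. CPM used library totals and a pseudocount of 0.5 on the log2 scale. Tests on counts used R 4.3.3, edgeR 4.0.16 and limma 3.58.1, with filterByExpr, TMM factors and robust quasi-likelihood fits, parents over progeny with sex as a term and sons over daughters in progeny alone, each adjusted by Benjamini-Hochberg at 0.05. Each SE was taken as the absolute fold change (log2) over the root of F. Alternatives included DESeq2 1.42.0, limma-voom, other scalings, filters and leave-one-out lists. The labels name no molecular identifiers, so intervals cover counting error only. Each progeny library is a separate tree, so p-values of sons over daughters measure spread between trees. For parents over progeny, with 1 library per parent, the spread comes mainly from the progeny trees, and the rule chose members for low spread there. The members, lists and rules were chosen with earlier results of these data known. Contigs were named by extremes of SD, level, length, small RNA density, fold change among called members, and the candidate limits. Flower small RNA was not analysed here.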

Additional observations from a re-analysis of the deposited data

Results flagged for a closer look

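Each named contig and 2 summaries of the 200 were compared tree by tree within the 8 sons and the 9 daughters. In 2 of the 50 groups examined a tree stood far from the rest, no more than the chance share of about 1 in 20. Son 7 had 165.49 CPM of Contig215973DeNovoAssembly, where the other sons had 171.08 to 176.06 CPM. Daughter 9 had 66.779 CPM of Contig215785DeNovoAssembly, where the other daughters had 50.103 to 56.799 CPM.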

How the results depend on the processing

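Candidate counts on other scales, the held-out lists of at least 50 CPM and the comparison with the median shift were chosen after seeing the data. The fit against a fold of 2, which asks for a larger change, called 3.49% of the range. In it the 25081 contigs of all and the 116 members called between parents and progeny became 3123 and 3. They became 9399 to 10092 and 57 to 71 without 1 parent, which leaves a lone parent assumed to vary like the other trees. With at least 50 counts in at least 10 libraries, which leaves fewer contigs to test, 10136 were called. The 6 other alternatives gave 97 to 123 members, against 42.3% to 47.9% of the range. Between the sexes 30 contigs became 94 with DESeq2, 414 without a filter and 24 to 68 without 1 tree, the most without daughter 9; the cause was not tested, and members called stayed at 0 in these fits. The 200 members became 119 with counting variance subtracted and 144 to 177 without 1 tree. The held-out SD of 0.147, against 0.209 over the range, became 0.162 against 0.236 when chosen in sons. Among contigs of at least 50 CPM it was 0.134, against 0.185 over all contigs of that level. The median shift of parents, -0.42, was -0.39 with TMM factors and -0.43 in either parent alone. The 41 candidates became 89 within 0.5 and 73 against the median shift.

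For 21 named members, 178 of 210 recomputed fold changes kept direction and side of the threshold. Signs turned in 14, none called in either fit. With at least 50 counts in at least 10 libraries these were 0.043 for Contig135240DeNovoAssembly, 0.099 for Contig192027DeNovoAssembly, 0.082 for Contig108836DeNovoAssembly, 0.025 for Contig295788DeNovoAssembly, 0.079 for Contig187009DeNovoAssembly, 0.10 for Contig229007DeNovoAssembly, 0.14 for Contig300951DeNovoAssembly, 0.16 for Contig313717DeNovoAssembly and 0.11 for Contig102914DeNovoAssembly. Without a filter they were -0.12 for Contig390737DeNovoAssembly, which had -0.028 with library totals, -0.039 for Contig187334DeNovoAssembly and -0.0061 for Contig140117DeNovoAssembly, which had -0.066 without the father and 0.30 without the mother. No paired analysis was possible because the numbers of trees carry no pairing. The median counting SD of members, 0.0702 (log2), is not a detection limit, and no smallest detectable difference was computed. Median SEs of members were 0.117 for parents over progeny and 0.0691 for sons over daughters.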

Other observations

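Co-movement of the 200 contigs was described over the 17 progeny libraries that chose them. Their SD there was a median of 1.41 times counting error, against 2.45 times over the range. Counting error holds r down, so nothing is read from a low r. Over the 17 trees, Pearson's r between members had a mean of 0.0721 over 19900 pairs, against 0.0304 over all pairs of contigs of 20 to 200 CPM, and ran from -0.835 to 0.851; all pairs share the same libraries and their totals. The median deviation of members from their progeny mean was lowest in daughter 5, at -0.059, and highest in son 9, at 0.044 (log2). A deviation beyond 0.25 was found in 6 members in daughter 1, the shallowest library, in 4 in son 8 and in 0 to 2 in each other progeny library.

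Contig186853DeNovoAssembly, 2228 bases long and named after its values were seen, was the only member with at least 10 small RNA counts and a ratio of at least 4 between the parents, 0.5% of members against 1.91% of the range. It held 132 small RNA counts in the father and 21 in the mother, a ratio of CPM of 8.57 (95% interval 5.38 to 14.3). Its mRNA had 49.6 CPM in the father and 45.1 CPM in the mother. In progeny, its mRNA had 57.1 to 74.0 CPM in sons and 57.8 to 65.0 CPM in daughters. Over all members the interval of the small RNA ratio included 1 in 168 (84%, against 84.1% of the range), lay above 1 in 30 (15%, against 11.4%) and lay below 1 in 2 (1%, against 4.53%).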
